A study of Homo sapiens with 6 samples.

Results

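The genes described here encode the proteasome of MKN-74, an established line from a human gastric cancer, and the factors that build, activate and inhibit it. They were taken from a gene table of 12385 genes by name, as every symbol that starts with PSM, a letter from A to G and a number, except PSMB8 and PSMB9. Of the 46 names found, 43 were proteasome genes: 15 of the 20S core (PSMA and PSMB), 19 of the 19S regulatory particle (PSMC and PSMD) and 9 assembly and activator genes (PSME, PSMF and PSMG). The other 3 were described apart, because PSMC3IP is a meiotic recombination factor that only borrows the name and PSMB8-AS1 and PSMG3-AS1 are annotated as long non-coding RNAs. The compared cells were LV-HOXD9 cells, transduced with a HOXD9 lentivirus and sequenced in 3 libraries, and LV-Vector cells, transduced with the empty lentivirus and sequenced in 3 libraries. Both vectors carried 3×FLAG, gcGFP and puromycin resistance, and both cell populations had been selected with puromycin. Whether the replicates go back to separate transductions is not given, and p-values therefore cover only the spread between the libraries. MKN-74 is 1 line, and HOXD9 was expressed from a lentiviral vector whose name lists an Ubi element before the cloning site.

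The proteasome is the main protease of the cytosol and nucleus and degrades proteins that carry ubiquitin chains. Its core is a barrel of stacked rings, in which the outer rings of PSMA subunits control entry and the inner rings of PSMB subunits hold the active sites. The regulatory particle caps the barrel, binds and removes ubiquitin, and unfolds the substrate with a ring of PSMC ATPases. When proteasome activity falls short, the transcription factor NFE2L1 raises the genes of both parts together through antioxidant response elements in their promoters, and CCAAT boxes are also common in proteasome promoters.

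Levels are FPKM, fragments per kilobase of transcript relative to the number of mapped fragments, and differences are on the log2(FPKM + 1) scale as LV-HOXD9 minus LV-Vector. The log scale with 1 added understates the change of low genes. Sequencing depth is unknown, because the tables hold no counts. HOXD9 was at 26.6, 26.4 and 31.3 FPKM in LV-HOXD9 cells, against 0, 0.0413 and 0.0309 FPKM in LV-Vector cells, as labelled (log2 fold change 4.82, adjusted p = 2.68e-06 from limma). Of the markers of a gastric epithelial line, EPCAM, CDH1, KRT8, KRT18, KRT19 and CLDN4 were all measured, with summed levels of 954 to 978 FPKM in LV-HOXD9 and 802 to 909 FPKM in LV-Vector cells, although CDH1 (2.16 to 2.60 against 2.25 to 2.75 FPKM) and CLDN4 (0.576 to 2.35 against 1.42 to 2.91 FPKM) were low. Of the leukocyte markers only CD68 was in the table (1.37 to 1.49 against 1.35 to 2.32 FPKM), of the fibroblast markers only COL1A1 (0.924 to 1.05 against 1.00 to 1.22 FPKM), and of the endothelial markers none. LV-HOXD9 replicate 3 and LV-Vector replicate 2 stood apart from the other libraries, because deviations of genes from their means went with transcript GC content, at a rank correlation of 0.659 in LV-HOXD9 replicate 3, -0.601 in LV-Vector replicate 2, and -0.295 to 0.231 in the other 4.

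The summed level of the proteasome genes was slightly higher in LV-HOXD9 cells, that of the core most, but no gene passed the test on its own. The 43 genes summed to 1920, 1840 and 1890 FPKM in LV-HOXD9 cells, against 1730, 1660 and 1710 FPKM in LV-Vector cells, so that the groups did not overlap and the ratio of the means was 1.11. They took 0.698% to 0.745% of all FPKM in LV-HOXD9 libraries and 0.666% to 0.688% in LV-Vector libraries. A positive log2 fold change was measured for 35 genes and a negative one for 8. The median was 0.09, against -0.04 over all genes of the table. The 43 genes also had higher levels, with a median of 26.8 FPKM against 5.44 FPKM over all genes. Log2 fold change rose with mean level, at a rank correlation of 0.434 over the 43 genes and 0.296 over 12054 genes of the table. They were not compared with other genes of like level. The largest difference was 0.28 on the log2 scale, for PSMC3, a fold of 1.22. The summed FPKM of the whole table differed between libraries too, with 257929, 256588 and 270501 for the LV-HOXD9 replicates against 251586, 242093 and 257015 for the LV-Vector replicates, and these sums overlapped. Scaled to equal totals, the median of the 43 genes was 0.03 and that of all genes -0.11, and with each library centred on its median they were 0.16 and 0.02. Without LV-HOXD9 replicate 1 the median of the 43 genes was 0.055.

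By limma with Benjamini-Hochberg adjustment over all genes, 0 of the 43 genes passed an adjusted p of 0.05, and the smallest was 0.0922 for PSMB5. In simulated data the same fit recovered 0% of log2 changes of 0.2, 2.5% of 0.3 and 62.5% of 0.6. Changes of the size measured here could therefore hardly pass, and not passing says little about a gene. Of the whole table, 0.0565% of genes passed as higher and 0.145% as lower. At an unadjusted p under 0.05, 12 of the 43 genes were higher and 1 was lower, where the whole table had 7.12% higher and 11.9% lower. With an ordinary linear model and the same adjustment, 0 of the 43 passed as well. By the criterion that the study used for its own list, with the unadjusted p below 0.05 and more than 1.2-fold difference, 3 genes were higher (PSMB5, PSMC3 and PSMD2) and 0 lower, against 1.94% and 4.60% of the table. All LV-HOXD9 libraries lay above all LV-Vector libraries for 14 of the 43 genes and below them for 1 gene (PSMG1), where 10.9% and 17.5% of all genes did so.

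**Figure D1:**
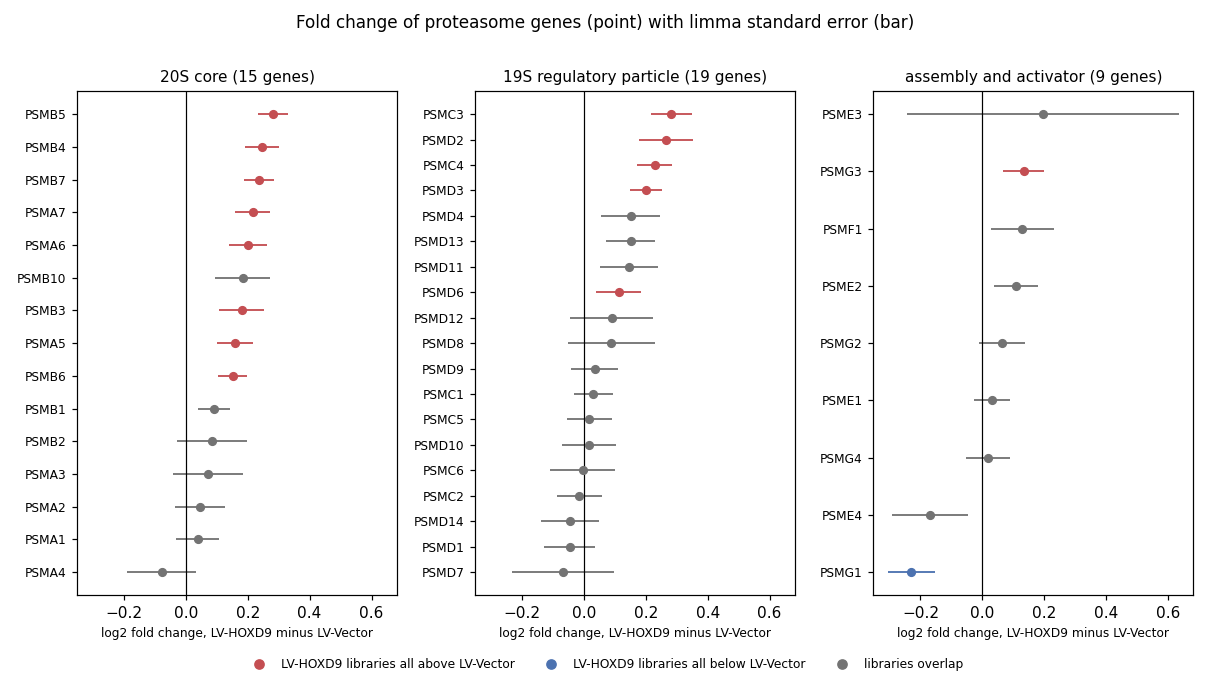
Log2 fold change of each of the 43 proteasome genes, LV-HOXD9 minus LV-Vector (point), with the limma standard error (bar), in the 20S core, the 19S regulatory particle and the assembly and activator genes. Points in red have all LV-HOXD9 libraries above all LV-Vector libraries (14 genes), the blue point is PSMG1, the 1 gene with all of them below, and in the core only PSMA4 lies left of 0.

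The 20S core was higher in LV-HOXD9 cells by a median log2 fold change of 0.16, with 14 of 15 genes positive. Its summed level was 990, 960 and 998 FPKM in LV-HOXD9 cells, against 882, 844 and 869 FPKM in LV-Vector cells, a ratio of 1.14. For 8 of the 15 genes the groups did not overlap, all higher (10.9% of all genes), and the same 8 had an unadjusted p under 0.05 (7.12% of all genes higher), PSMA5, PSMA6, PSMA7, PSMB3, PSMB4, PSMB5, PSMB6 and PSMB7. The inner-ring PSMB genes had a median of 0.18 with 8 of 8 positive, and the outer-ring PSMA genes a median of 0.07 with 6 of 7 positive.

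PSMB5, which carries the chymotrypsin-like activity that proteasome inhibitors such as MG132 block, had the smallest p of all 43 genes. It measured 52.5, 52.3 and 52.6 FPKM in LV-HOXD9 cells, against 41.9, 44.1 and 43.1 FPKM in LV-Vector cells. The LV-HOXD9 libraries were nearly identical and all lay above the highest LV-Vector library. The log2 fold change was 0.28 (SE 0.0487, unadjusted p = 0.000735, adjusted p = 0.0922 from limma). The gene lies on the minus strand of chromosome 14, from 23485752 to 23504439 in GRCh37, the build of the files.

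PSMB7, with the trypsin-like activity, was at 111, 108 and 111 FPKM in LV-HOXD9 cells, against 92.7, 90.1 and 96.4 FPKM in LV-Vector cells (log2 fold change 0.24, SE 0.0491, adjusted p = 0.125 from limma). PSMB6, with the caspase-like activity, was at 74.0, 71.8 and 74.6 FPKM in LV-HOXD9 cells, against 67.2, 64.6 and 66.4 FPKM in LV-Vector cells (log2 fold change 0.15, adjusted p = 0.20 from limma). All the standard catalytic subunits were therefore higher in each LV-HOXD9 library than in any LV-Vector library, without passing the adjusted test. PSMB10, the immunoproteasome counterpart of PSMB7, was far lower at 6.78, 7.12 and 7.65 FPKM in LV-HOXD9 cells, against 5.85, 5.82 and 7.0 FPKM in LV-Vector cells, and its groups overlapped (log2 fold change 0.18, adjusted p = 0.308 from limma).

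The other immunoproteasome subunits, outside the rule, were given for comparison. PSMB8 was at 15, 13.4 and 16.7 FPKM in LV-HOXD9 cells, against 13.2, 12.9 and 12.1 FPKM in LV-Vector cells (log2 fold change 0.22, adjusted p = 0.254 from limma). PSMB9 was at 1.38, 1.34 and 1.66 FPKM in LV-HOXD9 cells, against 0.944, 0.793 and 1.01 FPKM in LV-Vector cells (log2 fold change 0.36, adjusted p = 0.152 from limma). Neither pair of groups overlapped. PSMB8-AS1, which lies opposite PSMB8, was at 1.01, 0.45 and 0.530 FPKM in LV-HOXD9 cells and 0.377, 0.679 and 0.651 FPKM in LV-Vector cells.

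Among the structural subunits, PSMB4 of the inner ring was at 158, 151 and 160 FPKM in LV-HOXD9 cells, against 137, 125 and 133 FPKM in LV-Vector cells (log2 fold change 0.25, SE 0.0549, adjusted p = 0.140 from limma). PSMA7 of the outer ring had the highest level of the core, 211, 200 and 218 FPKM in LV-HOXD9 cells, against 189, 176 and 177 FPKM in LV-Vector cells (log2 fold change 0.22, adjusted p = 0.165 from limma). PSMA6 was at 17.5, 17.3 and 17.5 FPKM in LV-HOXD9 cells, against 14.2, 15.8 and 15.1 FPKM in LV-Vector cells (log2 fold change 0.20, adjusted p = 0.188 from limma). In each of these 3 genes the groups were apart, by less in PSMA7 and PSMA6 than in PSMB4. PSMB3 and PSMA5 were also apart, with log2 fold changes of 0.18 and 0.16. PSMA1, PSMA2, PSMA3, PSMA4, PSMB1 and PSMB2 overlapped between groups, with log2 fold changes from -0.08 (PSMA4) to 0.09 (PSMB1).

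**Figure D2:**
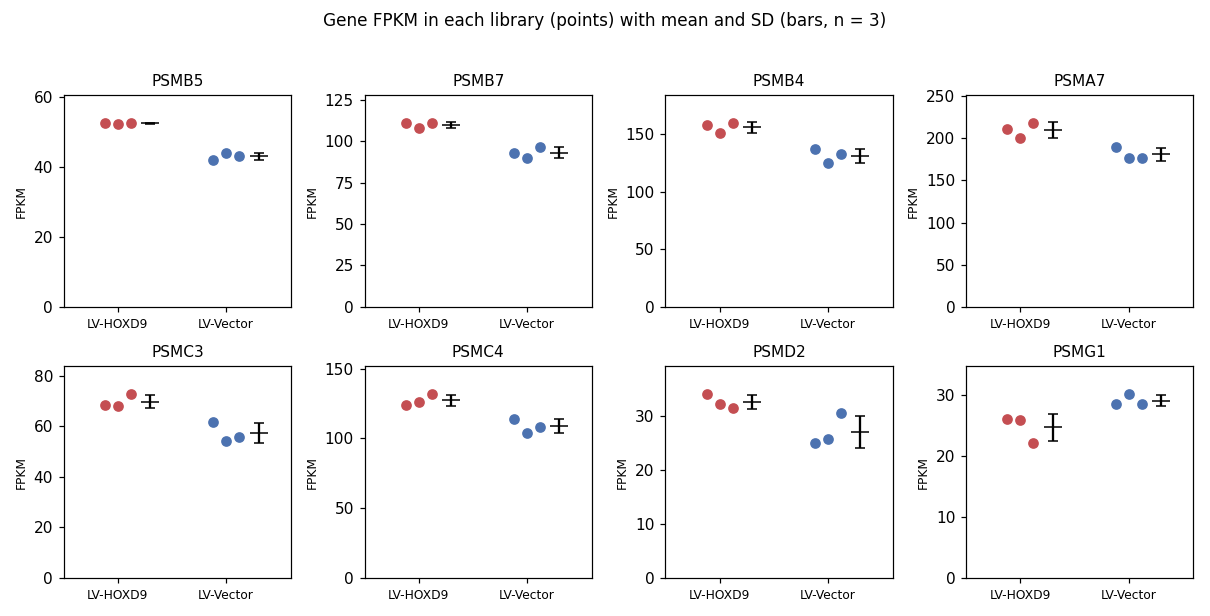
Gene FPKM (vertical axis, from 0) of 8 proteasome genes in the LV-HOXD9 libraries (red, left) and the LV-Vector libraries (blue, right), each point 1 library, with mean and SD (n = 3) in black. In the PSMB, PSMA, PSMC and PSMD genes shown every red point is above every blue point, and in PSMG1 every red point is below (22.1 to 26.0 against 28.4 to 30.1 FPKM).

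The 19S regulatory particle was less uniform, with a median log2 fold change of 0.09 and 14 of 19 genes positive. Its summed level was 714, 677 and 704 FPKM in LV-HOXD9 cells, against 643, 628 and 639 FPKM in LV-Vector cells, a ratio of 1.10. For 5 genes (PSMC3, PSMC4, PSMD2, PSMD3 and PSMD6) the groups did not overlap, all higher (10.9% of all genes), and 4 of these had an unadjusted p under 0.05 (7.12% of all genes higher). The 6 PSMC ATPase genes had a median of 0.02 and the 13 PSMD genes a median of 0.09.

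Among the ATPases, 2 lay apart between groups and 4 did not. PSMC3 was at 68.6, 67.9 and 72.8 FPKM in LV-HOXD9 cells, against 61.8, 54.2 and 55.7 FPKM in LV-Vector cells (log2 fold change 0.28, SE 0.0664, adjusted p = 0.148 from limma). PSMC4 was at 124, 126 and 132 FPKM in LV-HOXD9 cells, against 114, 104 and 108 FPKM in LV-Vector cells (log2 fold change 0.23, SE 0.0574, adjusted p = 0.158 from limma). PSMC1, PSMC2, PSMC5 and PSMC6, which sit in the same ring, had log2 fold changes from -0.02 to 0.03 and overlapping groups. The leading transcripts of PSMC3 and PSMC4 had 56.1% and 55.4% GC, against 48.7%, 43.1%, 52.1% and 36.8% for PSMC1, PSMC2, PSMC5 and PSMC6. Once the trends of each library with GC content and transcript length were removed, PSMC3 was at 0.22 and PSMC4 at 0.166. PSMC1, PSMC2, PSMC5 and PSMC6 were then at 0.088, 0.063, -0.016 and 0.161, so PSMC6 came close to PSMC4. The part of GC content in this split was not tested. The assembled particle holds the ATPases in equal number.

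PSMD2, a large scaffold subunit that binds ubiquitin shuttle factors, was at 34.0, 32.1 and 31.4 FPKM in LV-HOXD9 cells, against 24.9, 25.6 and 30.4 FPKM in LV-Vector cells. LV-Vector replicate 3 came close to the LV-HOXD9 libraries, and the log2 fold change of 0.27 had an SE of 0.0863 (adjusted p = 0.205 from limma). PSMD3, a scaffold of the lid, was at 65.0, 64.9 and 67.5 FPKM in LV-HOXD9 cells, against 59.0, 55.2 and 57.3 FPKM in LV-Vector cells (log2 fold change 0.20, adjusted p = 0.162 from limma). The ubiquitin receptor PSMD4 overlapped between groups, at 57.4, 53.2 and 61.3 FPKM in LV-HOXD9 cells and 56.1, 45.4 and 53.5 FPKM in LV-Vector cells (log2 fold change 0.15, adjusted p = 0.400 from limma). PSMD14, the deubiquitinase that cuts ubiquitin chains off the substrate, was at 16.5, 15.3 and 13.1 FPKM in LV-HOXD9 cells and 14.7, 16.4 and 15.1 FPKM in LV-Vector cells (log2 fold change -0.05, adjusted p = 0.802 from limma). The base assembly chaperones PSMD9 and PSMD10 overlapped between groups. PSMD9, the lowest gene of this part, was at 3.32, 3.37 and 3.65 FPKM in LV-HOXD9 cells and 3.16, 3.27 and 3.61 FPKM in LV-Vector cells, and PSMD10 (gankyrin) was at 7.33, 6.93 and 5.98 FPKM in LV-HOXD9 cells and 6.30, 6.97 and 6.66 FPKM in LV-Vector cells. PSMD5 was not among the names found in the gene table, where the larger group mean of every gene was at least 0.5 FPKM.

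The assembly and activator genes did not follow the core. Their summed level was 218, 207 and 187 FPKM in LV-HOXD9 cells and 207, 187 and 205 FPKM in LV-Vector cells, with overlapping groups and a ratio of 1.02, and 7 of 9 log2 fold changes were positive around a median of 0.07. PSMG1 and PSMG2 form the chaperone pair that starts the outer ring. PSMG1 was the only gene of the 43 below LV-Vector in every library, at 26.0, 25.9 and 22.1 FPKM in LV-HOXD9 cells, against 28.5, 30.1 and 28.4 FPKM in LV-Vector cells (log2 fold change -0.23, SE 0.0761, adjusted p = 0.207 from limma). Its partner PSMG2 was at 11.4, 10.2 and 10.3 FPKM in LV-HOXD9 cells and 10.7, 9.49 and 10.2 FPKM in LV-Vector cells, with overlapping groups.

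PSMG3 and PSMG4 form the second chaperone pair. PSMG3 was at 19.6, 18.9 and 20.2 FPKM in LV-HOXD9 cells, against 18.9, 16.6 and 17.7 FPKM in LV-Vector cells, a separation that rested on LV-HOXD9 replicate 2 lying just above LV-Vector replicate 1 (log2 fold change 0.13, adjusted p = 0.312 from limma). PSMG4, the lowest of all 43 genes, was at 3.26, 2.88 and 3.05 FPKM in LV-HOXD9 cells and 2.94, 3.00 and 3.10 FPKM in LV-Vector cells. PSMG3-AS1, a non-coding RNA beside PSMG3, was at 0.482, 0.384 and 0.624 FPKM in LV-HOXD9 cells and 0.732, 0.505 and 0.563 FPKM in LV-Vector cells, and PSMC3IP was at 4.15, 3.65 and 3.92 FPKM in LV-HOXD9 cells and 3.10, 3.53 and 3.84 FPKM in LV-Vector cells.

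The activators open the barrel without ubiquitin recognition. PSME1 and PSME2, which form the interferon-inducible activator ring, were at 73.0, 68.3 and 74.1 FPKM (PSME1) in LV-HOXD9 cells and 71.0, 67.1 and 72.6 FPKM in LV-Vector cells, and at 22.1, 19.8 and 22.6 FPKM (PSME2) in LV-HOXD9 cells and 19.7, 20.7 and 19.1 FPKM in LV-Vector cells. Both overlapped between groups. PSME4, a nuclear activator, was at 16.4, 15.7 and 12.2 FPKM in LV-HOXD9 cells and 15.4, 18.4 and 16.1 FPKM in LV-Vector cells (log2 fold change -0.17, adjusted p = 0.459 from limma). The inhibitor PSMF1 was at 10.9, 9.77 and 8.68 FPKM in LV-HOXD9 cells and 9.84, 8.45 and 8.21 FPKM in LV-Vector cells.

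**Figure D3:**
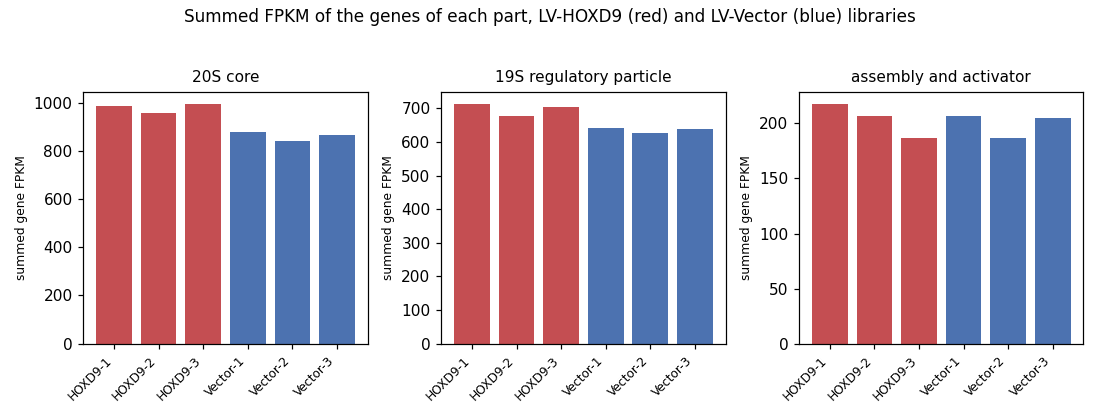
Summed gene FPKM of the 20S core, the 19S regulatory particle and the assembly and activator genes in each library, LV-HOXD9 in red and LV-Vector in blue, with axes from 0. In the first 2 panels every LV-HOXD9 bar is taller than every LV-Vector bar (960 to 998 against 844 to 882 FPKM in the core), and in the third panel the bars overlap (187 to 218 against 187 to 207 FPKM).

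The nuclear activator PSME3 had the widest spread of all 43 genes, and in its transcripts the libraries rather than the groups were apart. Its gene level was 35.2, 35.8 and 14.1 FPKM in LV-HOXD9 cells and 30.2, 12.9 and 29.7 FPKM in LV-Vector cells, low in 1 library of each group (log2 fold change 0.20, SE 0.439, adjusted p = 0.818 from limma). These were LV-HOXD9 replicate 3 and LV-Vector replicate 2, the libraries that stood apart by GC content. The long transcript PSME3-201 (3144 bases) was at 46.8, 50.4 and 1.07 FPKM in LV-HOXD9 cells and 40, 0.172 and 41.5 FPKM in LV-Vector cells. In the same 2 libraries the short PSME3-213 (826 bases) was the highest of its group, at 29, 15.6 and 47.4 FPKM in LV-HOXD9 cells and 21.3, 32.7 and 11.3 FPKM in LV-Vector cells. PSME3-213 lacks 2086 bases of the last exon of PSME3-201. The listed PSME3 transcripts summed to 82.6, 76.1 and 61.6 FPKM in LV-HOXD9 cells and 69.0, 61.6 and 61.3 FPKM in LV-Vector cells, so the low gene values stood beside a shift between a long and a short transcript, whose part in the result was not tested.

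The transcript table gave the clearest difference of the set, in a transcript of a gene whose level overlapped between groups. Of 175 transcripts of the 43 genes, 1 passed an adjusted p of 0.05 by limma over all 40304 transcripts, and it was lower. Of all transcripts, 0.0347% passed as higher and 0.0645% as lower. This was PSME1-205, at 0.00523, 0.110 and 0.202 FPKM in LV-HOXD9 cells, against 13.0, 14.1 and 11.6 FPKM in LV-Vector cells. It was near 0 in every LV-HOXD9 library and made up 10.5% to 14.0% of the listed PSME1 transcripts in LV-Vector cells (log2 fold change -3.65, SE 0.147, adjusted p = 0.00335 from limma). Leaving out any 1 library kept the adjusted p between 0.0234 and 0.0388, whereas without both LV-HOXD9 replicate 3 and LV-Vector replicate 2 it was 0.155 with the log2 fold change still at -3.65.

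The main PSME1 transcript, PSME1-201, was higher in all LV-HOXD9 libraries, at 87.9, 89.7 and 86.7 FPKM in LV-HOXD9 cells, against 71.0, 62.1 and 74.5 FPKM in LV-Vector cells (log2 fold change 0.35, unadjusted p = 0.0069, adjusted p = 0.590 from limma). The listed PSME1 transcripts together were at 107, 107 and 108 FPKM in LV-HOXD9 cells and 108, 101 and 111 FPKM in LV-Vector cells. In the GENCODE 29 annotation both transcripts have 11 exons and nearly the same ends, and PSME1-205 differs by 40 more bases at the end of its first exon, on chromosome 14 from 24136302 to 24136341 in GRCh38. Its annotated coding sequence is 270 bases, against 747 bases for PSME1-201. The 2 transcripts share all other exons, so these 40 bases and the junction after them are nearly all that sets PSME1-205 apart, and the reads were not analysed here.

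PSMG1 also differed in its transcripts, without passing the adjusted test. In simulated data the transcript fit recovered 0% of log2 changes of 0.6 and 2.5% of changes of 1. Differences of the size seen in PSMG1 could therefore hardly pass. PSMG1-201 (2154 bases) was at 19.8, 18.6 and 15.3 FPKM in LV-HOXD9 cells, against 12.4, 11.9 and 8.75 FPKM in LV-Vector cells (log2 fold change 0.66, unadjusted p = 0.00978, adjusted p = 0.641 from limma). PSMG1-202 (907 bases) was at 12.5, 11.1 and 11.3 FPKM in LV-HOXD9 cells, against 18.8, 18.9 and 18.9 FPKM in LV-Vector cells (log2 fold change -0.65, unadjusted p = 0.000654, adjusted p = 0.221 from limma). PSMG1-201 thus held 57.4% to 62.6% of the listed PSMG1 transcripts in LV-HOXD9 cells and 31.7% to 39.7% in LV-Vector cells, with no overlap. PSMG1-202 lacks exon 4 of PSMG1-201, 63 coding bases on the minus strand, and is shorter at both ends. That exon is shown because it is the coding difference between the transcripts that differed in opposite directions, with its 63 bases in capitals and 15 bases of the neighbouring exons of PSMG1-201 on either side, read from the GENCODE 29 transcript (chr21:39179924-39179986, GRCh38):
PSMG1-201 exon 4: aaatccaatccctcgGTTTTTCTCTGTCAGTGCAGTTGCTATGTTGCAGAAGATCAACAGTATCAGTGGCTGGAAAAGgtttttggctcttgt

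The summed PSMG1 transcripts were at 32.3, 29.7 and 26.6 FPKM in LV-HOXD9 cells and 31.2, 30.8 and 27.6 FPKM in LV-Vector cells, a log2 fold change of -0.02, against -0.23 for the gene level. The gene level also counts transcripts that the transcript table used here does not list, such as retained-intron and nonsense-mediated decay forms. A gene level in these files equalled the sum of transcript FPKM times length over the exon union of all annotated transcripts. For all 6 genes in which this width was the same in every library within 0.1% (PSMA5, PSMA7, PSMB1, PSMB2, PSMB7 and PSMG3), it equalled the GENCODE 29 exon union within 0.1%. On that basis unlisted transcripts carried 17.3%, 22.8% and 22.4% of the PSMG1 level in LV-HOXD9 cells, against 39.0%, 43.3% and 49.7% in LV-Vector cells. The groups did not overlap in this share, whereas they overlapped in the sum of the listed protein-coding transcripts. Of 24 genes of the set with a share over 10% in at least 1 library, the share was lower without overlap in 4, PSMG1 among them, and higher in 1. It was not computed for the other genes of the table.

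**Figure D4:**
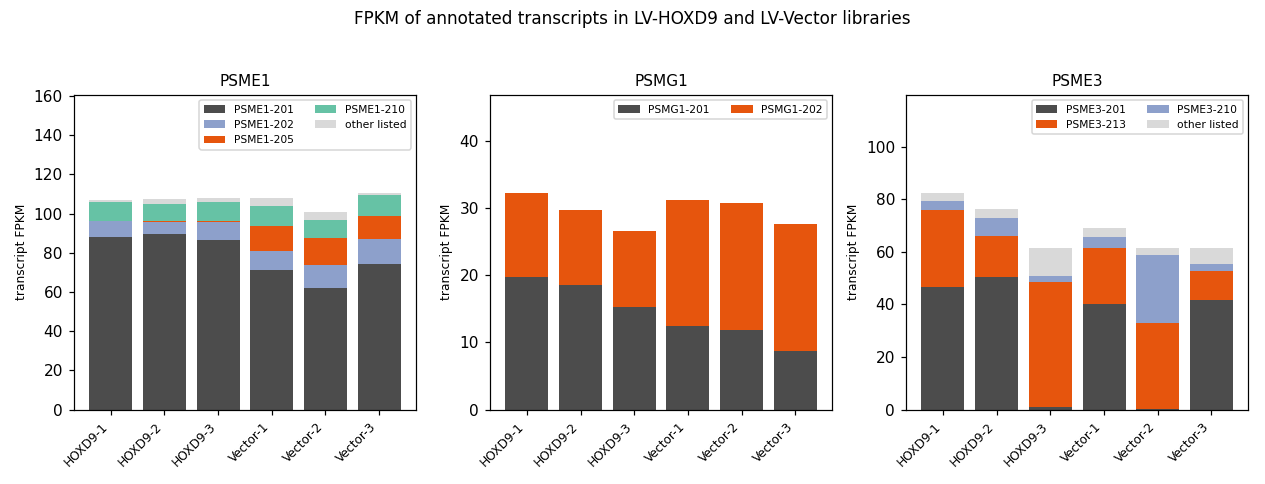
Stacked FPKM of the annotated transcripts of PSME1, PSMG1 and PSME3 in each library (horizontal axis, LV-HOXD9 left), with axes from 0. PSME1-205 (orange) is visible only in the LV-Vector bars (11.6 to 14.1 FPKM), PSMG1-202 (orange) is shorter in all LV-HOXD9 bars (11.1 to 12.5 against 18.8 to 18.9 FPKM), and PSME3-201 (dark) is near 0 in HOXD9-3 and Vector-2.

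Over all 175 transcripts, 30 had all LV-HOXD9 libraries above all LV-Vector libraries and 9 had all of them below, where 6.71% and 8.70% of all transcripts did so. At an unadjusted p under 0.05, 15 were higher and 3 lower, against 3.22% and 3.77% of the table. Transcript estimates also jumped within groups: of 82 transcripts with a mean of at least 5 FPKM, 13 had a highest library of at least 5 FPKM and more than 5 times the lowest in the same group, PSME3-201 and PSMD8-201 among them. PSMD8-201 was at 15.7, 49.3 and 8.32 FPKM in LV-HOXD9 cells and 15.2, 14.1 and 18.9 FPKM in LV-Vector cells. The PSMG1 transcripts were not among the 13, nor was PSME1-205, whose LV-HOXD9 libraries (0.00523 to 0.202 FPKM) lay under that minimum.

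Levels between subunits were compared by summed transcript FPKM, because the gene level is divided by an exon union that was 1.22 to 12.4 times as long as the leading transcript. On this scale PSMA7 was the highest gene of the core, at 397, 375 and 400 FPKM in LV-HOXD9 cells, against 351, 318 and 338 FPKM in LV-Vector cells. PSMB4 was next at 346, 332 and 353 FPKM in LV-HOXD9 cells, against 301, 273 and 290 FPKM in LV-Vector cells, then PSMB7 at 203, 200 and 203 FPKM in LV-HOXD9 cells, against 173, 166 and 178 FPKM in LV-Vector cells. PSMA7 and PSMB4 did not overlap within either group, nor did PSMB4 and PSMB7. PSMB5 was lower at 77.3, 75.3 and 78.1 FPKM in LV-HOXD9 cells, against 58.7, 65.0 and 61.7 FPKM in LV-Vector cells. In the regulatory particle PSMD8 was the highest (142 to 213 FPKM in LV-HOXD9, 163 to 178 FPKM in LV-Vector), followed by PSMD3 (147 to 152 and 123 to 134 FPKM), which overlapped it in LV-HOXD9 cells. These sums cover listed transcripts only, and PSMC4, the highest of the particle by gene level (118 FPKM over all libraries), had 53.6% to 65.7% of its level in LV-HOXD9 cells and 58.6% to 59.5% in LV-Vector cells in unlisted ones. The summed transcripts of PSMD9, a base assembly chaperone and the lowest gene of that part, were at 9.11 to 9.88 FPKM in LV-HOXD9 and 7.85 to 8.99 FPKM in LV-Vector cells. Genes of the same part thus differed far more from each other than between LV-HOXD9 and LV-Vector cells.

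The differences were larger in GC-rich genes. Over the 43 genes the rank correlation between log2 fold change and GC content (of the leading transcript) was 0.533, and over 12054 genes of the table with GC content it was 0.430. The genes share the same 6 libraries, so both values are descriptions. Of 22 proteasome genes above the table median of 49.7% GC, 11 were higher in all LV-HOXD9 libraries and the median log2 fold change was 0.15, where 18.1% of all such genes were higher and their median was 0.03. Of 21 at or below it, 3 were higher and 1 lower, with a median of 0.04, where 4.10% of all such genes were higher and their median was -0.12. In both classes the median of the proteasome genes lay above that of all genes.

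**Figure D5:**
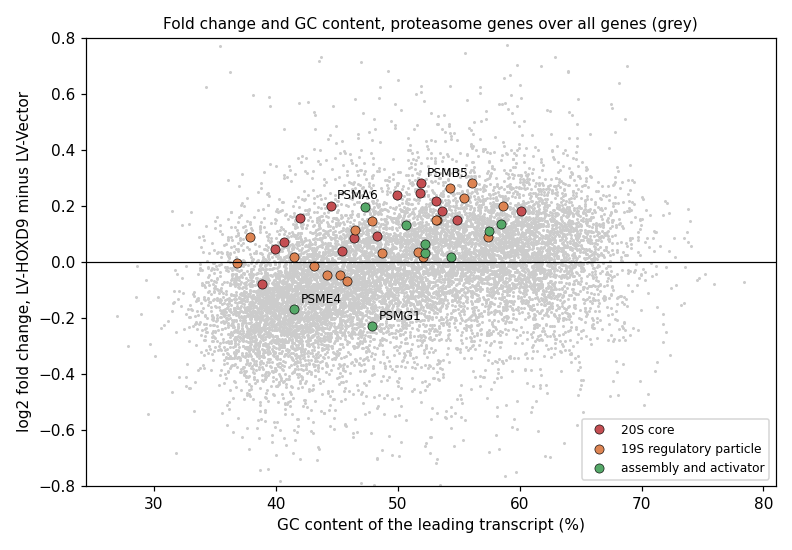
Log2 fold change, LV-HOXD9 minus LV-Vector, against the GC content of the leading transcript for 43 proteasome genes (coloured by part) over 12054 genes (grey), of which 58 lie beyond the vertical axis of -0.8 to 0.8. The grey cloud climbs with GC content, most coloured points lie above its middle, and PSMG1 and PSME4 lie lowest among them.

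With the trends of each library with GC content and transcript length removed, 3 of the 43 genes passed limma as higher and 0 as lower, against 1.41% and 1.34% of 12054 genes. These were PSMB5 (log2 fold change 0.24, adjusted p = 0.0319 from limma), PSMB7 (0.22, adjusted p = 0.0380 from limma) and PSMA6 (0.26, adjusted p = 0.0414 from limma), all of the core. The median of the 43 genes was 0.12 after the correction, and that of all genes 0.002. In the core, the median of the PSMA genes rose from 0.07 to 0.17 and that of the PSMB genes fell from 0.18 to 0.14, so that their order changed. In the regulatory particle, the median of the PSMC genes rose from 0.02 to 0.125 and that of the PSMD genes from 0.09 to 0.117.

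Promoter windows of RefSeq, 250 bases before to 50 bases after each start in GRCh38.p14, were listed for 37 of the 43 genes and searched on both strands. In all, 5 upstream stretches are shown, of genes among the higher ones in both parts of the proteasome, cut so that they hold no annotated exon. All 5 hold a CCAAT box, which was found for only 18 of the 37 genes. PSMC4 and PSMA6, also higher in all LV-HOXD9 libraries, had no CCAAT box in their windows and are not shown, so the 5 do not stand for all higher genes. Capitals mark the antioxidant response element core (TGACNNNGC) and the CCAAT box, or its reverse ATTGG. The stretches are PSMB3 (chr17:38752591-38752735, plus strand), PSMA5 (chr1:109426449-109426598, minus strand), PSMB5 (chr14:23035231-23035420, minus strand), PSMC3 (chr11:47426474-47426589, minus strand) and PSMD3 (chr17:39980577-39980796, plus strand), each 5′ to 3′:
PSMB3: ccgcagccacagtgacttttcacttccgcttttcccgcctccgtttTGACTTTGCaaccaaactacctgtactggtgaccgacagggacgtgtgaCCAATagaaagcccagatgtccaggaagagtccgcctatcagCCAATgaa
PSMA5: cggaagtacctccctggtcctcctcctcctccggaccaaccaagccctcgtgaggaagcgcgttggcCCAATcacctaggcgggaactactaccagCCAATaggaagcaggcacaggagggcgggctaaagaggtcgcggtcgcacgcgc
PSMB5: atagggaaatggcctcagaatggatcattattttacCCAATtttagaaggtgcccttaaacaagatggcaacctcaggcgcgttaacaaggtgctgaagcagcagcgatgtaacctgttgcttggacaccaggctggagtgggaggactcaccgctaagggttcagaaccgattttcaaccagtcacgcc
PSMC3: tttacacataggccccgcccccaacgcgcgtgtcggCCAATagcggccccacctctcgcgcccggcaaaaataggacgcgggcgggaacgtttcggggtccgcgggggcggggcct
PSMD3: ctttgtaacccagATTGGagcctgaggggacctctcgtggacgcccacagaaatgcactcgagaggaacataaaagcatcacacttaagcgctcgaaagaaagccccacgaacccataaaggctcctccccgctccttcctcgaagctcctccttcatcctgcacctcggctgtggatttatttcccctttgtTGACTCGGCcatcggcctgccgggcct

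The antioxidant response element core was found in windows of 13 of the 37 genes (28.9% of their 45 windows), against 13.3% of all 35116 windows and 14.7% of those of genes in the table. The CCAAT box was found for 18 of the 37 genes (40% of windows), against 34.6% of all windows, and the ETS core CCGGAAG for 14 (31.1% of windows), against 10.3% of all windows and 18.1% of those of genes in the table. A core of the kind bound by HOX proteins of HOXD9's class, TTTATTG, was found in 0 of the 45 windows, against 4.0% of all windows and 2.25% of those of genes in the table. In PSMB3 the element core lay 104 to 96 bases before the start and the CCAAT boxes 55 to 51 and 13 to 9 bases before it. Of the 13 genes with the element core, PSMB3, PSMC4 and PSMD3 were higher in all LV-HOXD9 libraries, and PSMG1 was lower in all of them. The others, PSMA4, PSMC5, PSMD1, PSMD9, PSMD12, PSME1, PSME2, PSME4 and PSMG2, overlapped between groups. Among all 43 proteasome genes, 14 (32.6%) were higher and 1 was lower without overlap, where 10.9% and 17.5% of all genes were. Whether the element core went with the difference between groups was not tested. No binding was measured, and a match says nothing about it.

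NFE2L1, the factor that raises proteasome genes, overlapped between groups, at 26.3, 19.9 and 20.7 FPKM in LV-HOXD9 cells and 23.2, 19 and 20.2 FPKM in LV-Vector cells. Of 12 genes of its activation and partners, 0 passed the adjusted test, and 2 were higher at an unadjusted p under 0.05 (7.12% of all genes were), VCP (log2 fold change 0.16, adjusted p = 0.197 from limma) and MAFK (0.23, adjusted p = 0.222 from limma). VCP is the ATPase that pulls NFE2L1 out of the endoplasmic reticulum membrane, and was at 135, 139 and 136 FPKM in LV-HOXD9 cells, against 126, 118 and 124 FPKM in LV-Vector cells. MAFK, a small partner of NFE2L1 on DNA, was at 9.80, 9.32 and 9.94 FPKM in LV-HOXD9 cells, against 8.93, 7.30 and 8.19 FPKM in LV-Vector cells. DDI2, the protease that activates NFE2L1, was lower in all LV-HOXD9 libraries, as 17.5% of all genes were, at 6.09, 6.08 and 4.75 FPKM against 6.45, 7.93 and 6.13 FPKM in LV-Vector cells.

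Of 13 proteasome partners outside the PSM names, 0 passed the adjusted test and 1 was higher at an unadjusted p under 0.05, a share near the 7.12% of all genes. This was ADRM1, a ubiquitin receptor of the regulatory particle, at 212, 208 and 228 FPKM in LV-HOXD9 cells, against 180, 153 and 168 FPKM in LV-Vector cells (log2 fold change 0.37, SE 0.0732, adjusted p = 0.116 from limma). Its difference was larger than that of any of the 43 genes. KIAA0368 (ECPAS), a proteasome adaptor, was lower in all LV-HOXD9 libraries, as 17.5% of all genes were. It was at 22.3, 21.3 and 19.3 FPKM in LV-HOXD9 cells, against 22.8, 25.6 and 23.1 FPKM in LV-Vector cells (log2 fold change -0.18, adjusted p = 0.274 from limma). With the trends with GC content and length removed, ADRM1 was at 0.292 (adjusted p = 0.0249 from limma) and KIAA0368 at -0.034 (adjusted p = 0.609 from limma). The core assembly factor POMP overlapped between groups, at 97.6, 92.6 and 88.4 FPKM in LV-HOXD9 cells and 83.1, 90.0 and 87.9 FPKM in LV-Vector cells.

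Of 16 ubiquitin genes and shuttle factors, 0 passed the adjusted test and 5 were higher in all LV-HOXD9 libraries, where 10.9% of all genes were. UBQLN4, a shuttle factor, was at 26.4, 27.5 and 26.9 FPKM in LV-HOXD9 cells, against 25.6, 24.0 and 24.3 FPKM in LV-Vector cells (log2 fold change 0.13, adjusted p = 0.266 from limma). The medians of the lists were -0.06 for the partners, -0.02 for the NFE2L1 genes and 0.08 for the ubiquitin genes, against -0.04 over all genes.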

How the data were processed

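Trimming with cutadapt, quality control with FastQC, alignment with HISAT2 (GRCh37) and assembly with StringTie are named in the submitters' processing notes, and no source used here gives their versions. Ballgown was used by the authors for the FPKM values in both deposited tables (genes and transcripts), and no further scaling is stated. Libraries were made with a stranded kit.

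The values were compared as log2(FPKM + 1) with limma 3.58.1 in R 4.3.3, with variances that follow a trend with the level, two-sided, and Benjamini-Hochberg adjustment over all 12385 genes or all 40304 transcripts. The gene and transcript fits were tested on simulated data, with 40 changed genes or transcripts of each size. An exact permutation test of 3 libraries against 3 cannot give a p under 0.10. GC content and lengths came from GENCODE release 29 transcripts matched by identifier (97.3% of genes), and loess with a span of 0.5 removed their trends. Widths and motifs were computed in Python 3.11.15 with pandas 2.3.3, and figures with matplotlib 3.10.9.

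Members, lists and tests were chosen with earlier results of these data known. Named were genes past the adjusted test or the criterion of the study, in each part the 3 with the smallest p and the highest and lowest level, the catalytic subunits, ubiquitin receptors, activators and chaperones, non-coding names, and from each list the genes past the test and the 2 with the smallest p, of which 1 gene is not reported here. PSMA4, PSMB2, PSMD1, PSMD8 and others were named beside these after their values were seen, as were the transcripts. GENCODE 29 lists 32 pseudogenes named after 12 of the 43 genes (13 for PSMC1), and how their reads were assigned is not given. Alternatives were a pseudocount of 0.1, a mean of at least 1 FPKM or no minimum, a TPM scale, quantile normalization, median centring, a replicate block, leaving out each library, an ordinary and an untrended model, the criterion of the study, and the GC content and length correction. A fit without the pair of libraries that stood apart by GC content, summed transcripts and all 46 names were added after seeing the data.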

Additional observations from a re-analysis of the deposited data

How the results depend on the processing

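No member passed an adjusted p of 0.05 in any fit with limma or the ordinary model, except the 3 called with the GC content and length correction. These were PSMA6 (0.259, adjusted p = 0.0414 from limma), PSMB5 (0.244, 0.0319) and PSMB7 (0.224, 0.0380). The criterion of the study, which uses an unadjusted p, called 3 members. The median log2 fold change of the 43 genes was 0.029 on the TPM scale, 0.156 with median centring, 0.143 for summed transcripts and 0.115 without both libraries that stood apart by GC content, and that of the core 0.101, 0.079 (quantile normalization), 0.223 (median centring) and 0.124 (without both). The regulatory particle was at 0.024 and 0.152, and the assembly and activator genes at 0.007 and 0.13 (TPM scale and median centring) and 0.143 (summed transcripts). Leaving out each library in turn gave medians of 0.055 (without LV-HOXD9 replicate 1) to 0.111 for all 43 genes, 0.139 to 0.173 for the core, 0.036 to 0.09 for the regulatory particle and 0.016 to 0.101 for the other genes, 4 to 25 called genes in the whole table, against 25 with all libraries, and 1 member transcript throughout. The whole table had 14 calls with median centring, 12 with the ordinary model, 332 with the GC content and length correction, 9 without both libraries, 5 for summed transcripts and 810 by the criterion of the study. On the TPM scale the median of all genes was -0.113, against -0.044. The medians of the 43 genes and of their 3 parts were positive in all of these.

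Replicate numbers did not pair the libraries (correlations of deviations of -0.173, 0.168 and -0.00641). With the replicate block the whole table had 3 calls, and 3 with the block and the GC content and length correction, where 0 of the 43 genes were called. PSME1-205 was then at -3.65 (adjusted p = 0.278) and -3.674 (0.268), and without both libraries at -3.651 (0.155), so that 0 member transcripts were called in each. Several small differences changed sign, with the cause not tested. PSMD10 was at -0.044 on the TPM scale, and at 0.121 without both and between -0.039 and 0.09 without single libraries. PSMD14 was at 0.018 (median centring), 0.013 (GC correction, with or without block), 0.085 (without both) and -0.117 to 0.041 without single libraries. PSMD9 was at -0.018 (TPM scale) and -0.01 (without both), and 0.002 to 0.078 without single libraries. PSME1 was at -0.033 (TPM scale), -0.03 (quantile normalization), -0.007 (GC correction, with or without block), -0.024 (without both) and -0.001 to 0.066 without single libraries. PSME3 was at -0.188 to 0.621 without single libraries. PSME4 was at 0.015 (GC correction, with or without block) and 0.028 (without both), against -0.246 to -0.044 without single libraries, PSMG2 at -0.098 (summed transcripts), and PSMG4 at -0.037 (TPM scale), -0.033 (GC correction, with or without block) and -0.017 to 0.051 without single libraries. HOXD9 kept its direction and its call in every alternative. Depth is unknown, so no lowest detectable level can be set.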
